A study of Mus musculus with 2 samples.

Results

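Fgf8, Fgf9, Fgf15, Fgf17 and Fgf20 are fibroblast growth factor (FGF) ligands, secreted proteins that were followed here in single cells of the embryonic mouse mandible. The 5 genes were taken by symbol from the 27998 genes measured at E12.0 and the 31053 measured at E9.5. Each had at least 1 UMI, a distinct RNA molecule counted in a cell, at both stages. In the E12.0 and E9.5 cells kept, Fgf8 had 1939 and 6805 UMIs, and Fgf9 had 4528 and 98. Fgf17 had 199 and 49, Fgf15 had 60 and 38, and Fgf20 had 58 and 7.

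FGF ligands bind receptor tyrosine kinases at the cell surface and raise the transcription of a set of response genes in the receiving cell, among them the Sprouty and Spred inhibitors, the phosphatase gene Dusp6 and the transcription factor genes Etv4 and Etv5. Fgf8 and Fgf17 belong to one subfamily, Fgf9 and Fgf20 to another, and Fgf15 to the group whose members later act as hormones. In the first branchial arch, Fgf8 from the oral epithelium is known for its part in mesenchyme survival and in setting where teeth form, and Fgf9 and Fgf20 are known as ligands of the dental epithelium. The initiation knot is an early signalling centre of the tooth bud, marked by Shh.

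The E12.0 library held GFP-positive epithelial cells of mandibular arches, sorted after pooling 6 embryos, all from 1 litter and of genotype K14Cre;R26mT/mG, in which a Cre driven by the epithelial keratin gene Krt14 switches the reporter to GFP. The E9.5 library held unsorted epithelium and mesenchyme of mandibular arches from 8 pooled embryos, given the same genotype in the labels. Neither library was treated, and there was 1 library per stage, so there was no replicate and no test. Intervals below are 95% intervals that cover counting error only, and stage cannot be told apart from library, sort or software version.

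After filtering, 11355 cells with a median of 6349 UMIs remained at E12.0 and 12744 cells with a median of 13460.5 at E9.5. Cells were placed in groups by the mean score of marker genes that included no FGF gene, and 4320 E12.0 cells (38.0%) and 3747 E9.5 cells (29.4%) met no group's criterion. At E12.0 the groups were anterior-like (Cxcl14, Tfap2b), dental-like (Irx2, Fst), initiation knot-like (Shh, Dkk4), posterior-like (Rtl3, Col14a1), tongue-like (Foxa1, Prox1), salivary-like (Foxc1, Sox9) and periderm-like (Grhl3, Nebl). Markers kept out of the grouping were highest in their own group for 14 of 15 genes at E12.0 and 11 of 17 at E9.5. At E12.0 no marker was kept out for salivary-like and tongue-like cells. At E9.5 none was kept out for mesoderm core-like, cardiac-like, neuron-like, blood-like, macrophage-like and migratory crest-like cells. These groups were therefore not checked in this way. At E9.5, 3 of the 4 such markers of crest mesenchyme-like cells (Alx1, Col3a1, Snai1) and 2 of the 3 of endoderm-like cells (Sox17, Hhex) were highest in another group, and Irx1, taken as an ectoderm marker, was higher in endoderm-like cells. The E12.0 cells held the epithelial gene Epcam in 84.0% of cells, and 12 markers of other cell types summed to 11.4 CPM (UMIs of a gene per 1000000 UMIs of the group), with 4 of them at 0. Between the libraries, 51 cell barcodes were shared, 44 of them among kept cells.

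The ligands pair by coding sequence as they do by subfamily. In the GRCm38 annotation, Fgf8 lies at chr19:45736798-45742915 on the minus strand with 6 exons, Fgf17 at chr14:70636203-70642268 on the minus strand with 5 exons, and Fgf9 at chr14:58070547-58112720 on the plus strand with 3 exons. Fgf20 lies at chr8:40279166-40308331 on the minus strand and Fgf15 at chr7:144896531-144900953 on the plus strand. Fgf8 and Fgf17 were identical at 70.0% of 633 aligned coding bases, and Fgf9 and Fgf20 at 68.1% of 621, against 44.8% to 48.6% in the other 8 pairs. The longest run shared exactly by any pair of transcripts was 20 bases, in Fgf8 and Fgf17. The most alike stretch of 60 coding bases of each pair is shown as an example of the likeness within each subfamily. Capitals mark the bases that the pair has in common, 53 of 60 for Fgf8 and Fgf17 (exonic, chr19:45737208-45737267 and chr14:70636951-70637010, both on the minus strand) and 52 of 60 for Fgf9 and Fgf20 (exonic, chr14:58109357-58109416 on the plus and chr8:40279922-40279981 on the minus strand).
Fgf8: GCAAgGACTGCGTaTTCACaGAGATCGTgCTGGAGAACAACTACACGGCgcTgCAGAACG
Fgf17: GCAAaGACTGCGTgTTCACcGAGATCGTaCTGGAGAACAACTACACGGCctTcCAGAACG
Fgf9: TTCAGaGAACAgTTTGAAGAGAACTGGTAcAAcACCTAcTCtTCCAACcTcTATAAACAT
Fgf20: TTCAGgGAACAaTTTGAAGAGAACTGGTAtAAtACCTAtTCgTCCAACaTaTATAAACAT

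At E12.0 the 5 ligands were distributed differently over the epithelium. Fgf8 was highest in dental-like cells, Fgf9 in initiation knot-like and salivary-like cells, and Fgf17 and Fgf20 in initiation knot-like cells. Fgf15 was low throughout, with its highest values in initiation knot-like and posterior-like cells. In anterior-like cells all 5 were lower than in the other cells by at least 2-fold, as were 7.54% of 14470 genes. A gene is called higher or lower here when the ratio of CPM reached 2-fold and the groups together held at least 20 UMIs, a criterion of size and not a test.

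**Figure D1:**
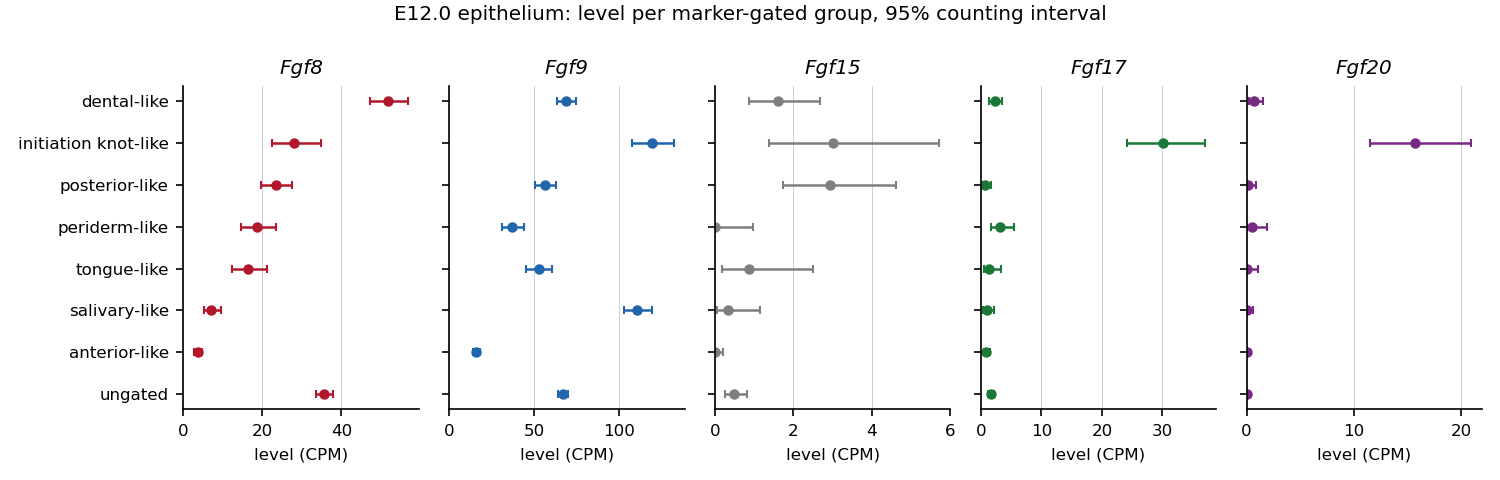
Level of each ligand (CPM, linear axis from 0, a scale of its own per gene) in the 7 marker-gated groups and the ungated cells of the E12.0 library, with points for the level and bars for the 95% counting interval. Fgf8 peaks at 51.9 CPM in dental-like cells, Fgf9 at 119.8 CPM in initiation knot-like cells, and Fgf17 and Fgf20 reach 30.1 and 15.7 CPM in initiation knot-like cells and stay under 4 CPM in the others.

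Fgf8 was read at 51.9 CPM (47.2 to 56.9) in dental-like cells, 28.1 in initiation knot-like, 23.4 in posterior-like, 18.6 in periderm-like and 16.3 in tongue-like cells. It was lowest in salivary-like cells, at 7.06 CPM (5.13 to 9.48), and in anterior-like cells, at 3.62 CPM (2.79 to 4.61). In this order the dental-like level stood apart from the next one, 1.85-fold (1.46 to 2.36), while the levels from initiation knot-like down to tongue-like cells did not differ from their neighbours beyond counting error. Against all other kept cells, Fgf8 was higher in dental-like cells by 1.27 (1.12 to 1.43) on the log2 scale, where 2.37% of 14470 genes were called higher. This call was lost with a class score of at least 1.0 (0.79) and with at most 5% mitochondrial UMIs (0.91). It was lower in anterior-like cells by 8.63-fold (6.74 to 11.2) and in salivary-like cells by 3.74-fold (2.78 to 5.17), where 7.54% and 7.98% of genes were called lower. Cells that met no group's criterion held 1021 of the 1939 Fgf8 UMIs (52.7%), at 35.7 CPM (33.6 to 38.0), a level above that of every group but the dental-like one.

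Within dental-like cells, Fgf8 was uneven. Cells with a UMI of Isl1 or Tlx1, transcription factor genes that the study maps to the incisor region, held 27.4 CPM of Fgf8 (23.1 to 32.3), and cells with neither held 86.4 (77.1 to 96.5). The difference was -1.66 (-1.95 to -1.36) on the log2 scale, where 1.13% of 11073 genes were called lower. The same split over all kept E12.0 cells gave -0.91, under the 2-fold criterion. Dental-like cells with a UMI of Timp3, an inhibitor of metalloproteinases, had 74.0 CPM of Fgf8 and those without had 39.2, a log2 difference of 0.92 (0.64 to 1.19) that did not reach the criterion. A split on a UMI follows depth as well, and the median cell had 7402 UMIs with Isl1 or Tlx1 and 6321.5 without. With each cell thinned to 4000 UMIs, Fgf8 was detected in 8.60% and 26.4% of the cells. Fgf9 differed less across the split, with 62.1 and 78.4 CPM and a log2 difference of -0.34 (-0.57 to -0.10).

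Fgf9 was detected in every group. Its level was 119.8 CPM (107.7 to 132.9) in initiation knot-like and 111.1 CPM (103.0 to 119.7) in salivary-like cells, which did not differ beyond counting error (1.08-fold, 0.947 to 1.23). Dental-like cells followed at 68.8 CPM, posterior-like at 56.5, tongue-like at 52.8 and periderm-like at 37.3. Anterior-like cells had 16.0 CPM (14.2 to 17.9), the lowest level of the 7 groups. Cells that met no group's criterion held 1916 of the 4528 Fgf9 UMIs (42.3%), at 67.1 CPM (64.1 to 70.1). Against all other kept cells, Fgf9 was higher in initiation knot-like cells by 1.11 (0.95 to 1.26) and in salivary-like cells by 1.05 (0.94 to 1.17) on the log2 scale, where 5.92% and 4.84% of genes were called higher. The salivary-like value lies close to the criterion and fell under it with thinned cells (0.91) and with cells weighted equally (0.96). Fgf8 and Fgf9 thus stood in opposite order in the salivary-like cells, with Fgf8 at 7.06 CPM against 26.4 in the other cells and Fgf9 at 111.1 against 53.5. Fgf17 had 6 UMIs in the salivary-like cells, Fgf15 had 2 and Fgf20 had 0.

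Fgf17 and Fgf20 were concentrated in the initiation knot-like cells, 428 cells that make up 3.77% of the kept cells. These held 90 of the 199 Fgf17 UMIs (45.2%) and 47 of the 58 Fgf20 UMIs (81.0%). Fgf17 was at 30.1 CPM (24.2 to 37.0) there, at 3.15 (1.63 to 5.51) in periderm-like cells, the next group, and between 0.651 and 2.29 in the other 5 groups, whose neighbours in the order overlapped. Fgf20 was at 15.7 CPM (11.6 to 20.9) in initiation knot-like cells, 0.687 in dental-like, 0.525 in periderm-like and 0.163 in posterior-like cells, and had 0 UMIs in anterior-like, tongue-like and salivary-like cells. Against all other kept cells the log2 ratio was 4.37 (3.95 to 4.79) for Fgf17 and 6.74 (5.78 to 7.84) for Fgf20. Across the 3 filters, 2 other class scores and 2 other weightings tried, the Fgf17 ratio stayed between 4.13 and 4.63 and the Fgf20 ratio between 6.58 and 7.56. Detection was in few of the cells, with Fgf17 in 54 (12.6%), Fgf20 in 34 (7.94%) and Fgf9 in 180 (42.1%) of the 428. Anterior-like cells, of similar depth (medians of 6463 and 6253.5 UMIs), had Fgf17 in 0.580% and Fgf20 in 0 of 2584 cells. The interval of that count of 0 reaches 0.205 CPM. A single initiation knot-like cell held at most 7 UMIs of Fgf17 and 3 of Fgf20. Of the 17 other FGF ligands, 5 had enough UMIs for this comparison. Among these, 1 was higher and 2 were lower, where 5.92% and 8.40% of all genes were called. The higher one was Fgf4, also known from dental signalling centres, at 9.71 CPM with 29 of its 32 UMIs in these cells.

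Fgf15 had 60 UMIs in all. It was at 3.01 CPM (1.38 to 5.72, 9 UMIs) in initiation knot-like, 2.93 (1.74 to 4.63, 18 UMIs) in posterior-like and 1.60 (0.877 to 2.69, 14 UMIs) in dental-like cells, 3 levels that did not differ beyond counting error. The log2 ratio to all other kept cells was 2.32 (1.44 to 3.15) in posterior-like cells, where 2.85% of genes were called higher. Fgf15 was also called higher in initiation knot-like and dental-like cells, as were 5.92% and 2.37% of genes. The 9 UMIs of the initiation knot-like cells came from 5 of 428 cells, with 4 of them in a single cell. In posterior-like cells Fgf17 had 4 UMIs, 0.651 CPM, and was lower by 4.17-fold (1.60 to 15.5), where 8.18% of genes were called lower. Anterior-like cells had 0 UMIs of Fgf15 and of Fgf20. With 3 UMIs put in the place of 0, they were 5.99-fold and 5.79-fold lower than the other cells. Fgf17 was lower there by 3.43-fold (2.05 to 6.12). The annotated genes Gm26793 and Gm39119 lie across Fgf15 on the other strand, Gm17109 across Fgf9 and Micu3 across Fgf20, and the microRNA gene Mir7666 overlaps Fgf20 on its own strand.

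The receptors and response genes of the pathway were compared over the same groups. In salivary-like cells, 8 of the 10 response genes were higher and 0 lower, where 4.84% and 7.98% of all genes were called. The median log2 ratio was 1.54 over the list and 0.01 over all genes tested. Of the 5 ligands, 1 (Fgf9) was higher in these cells and 4 were lower, Fgf20 only by its count of 0 UMIs. With 3 UMIs put in the place of 0, Fgf20 was at 0.482 CPM against 0.809 in the other cells, under the 2-fold criterion. Among the 17 other FGF ligands, 5 had enough UMIs, of which 1 was higher and 2 were lower. The library was sorted for epithelium, so ligands of the mesenchyme were not measured at E12.0. Dusp6 was at 145.3 CPM there and 30.8 elsewhere, Etv5 at 134.2 and 27.0, and Etv4 at 70.2 and 12.1. Of the 4 receptor genes with enough UMIs among 7, Fgfr1 and Fgfrl1 were higher in these cells, at 130.9 and 16.5 CPM, and Fgfr3 was lower. In anterior-like cells, where all 5 ligands were called lower, 6 of the 10 response genes were lower and 0 higher, with a median of -1.37. Of all genes, 7.54% were called lower there. Etv4 was at 2.90 CPM against 20.9 in the other cells. Fgf8 was highest in dental-like cells, and Fgf9, Fgf17 and Fgf20 in initiation knot-like cells, with Fgf9 at 119.8 CPM there and 111.1 in salivary-like cells. In dental-like and initiation knot-like cells 0 of the 10 response genes were higher and 1, Spry4, was lower. The medians were -0.17 and -0.10. Of all genes, 2.37% and 5.92% were called higher in these groups and 8.64% and 8.40% lower. The counts of 0 and 1 lie near these shares. In posterior-like cells 1 was higher, Etv4 at 40.9 CPM, where 2.85% of all genes were called higher. In periderm-like and tongue-like cells 0 were called in either direction. Of all genes, 6.59% and 3.05% were called higher there and 6.93% and 5.85% lower.

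**Figure D2:**
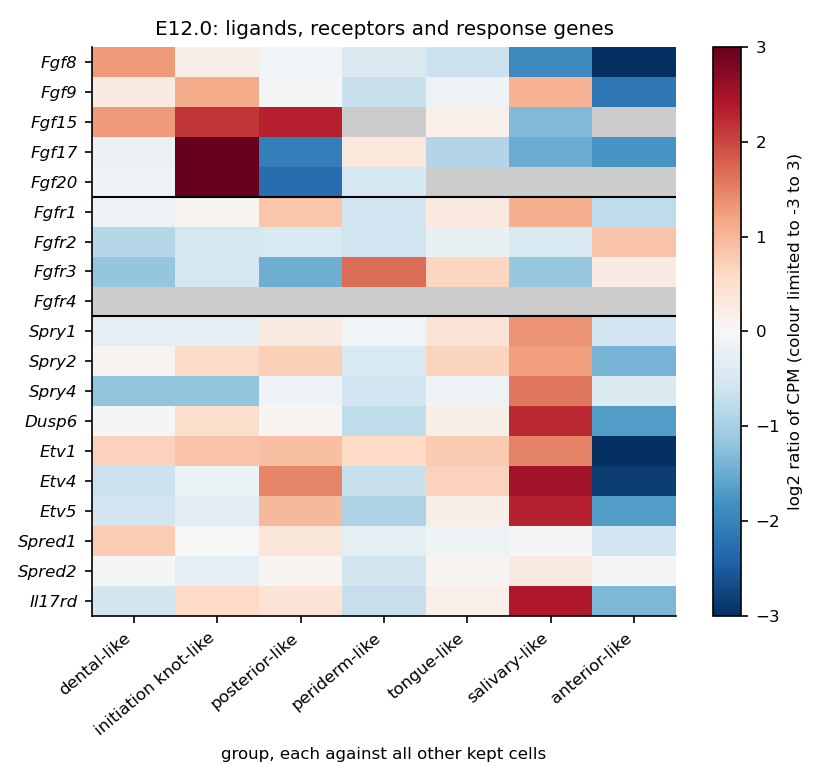
Log2 ratio of CPM in each E12.0 group against all other kept cells (colour, limited to -3 to 3) for the 5 ligands, 4 receptors and 10 response genes, with grey where a group had 0 UMIs or the groups together fewer than 20. Salivary-like cells are high in Fgf9 and 8 of the 10 response genes and lower in Fgf8, Fgf15 and Fgf17, with Fgf20 grey at 0 UMIs. Anterior-like cells are low in the ligands, with Fgf15 and Fgf20 grey at 0 UMIs, and in 6 of the 10 response genes.

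At E9.5, Fgf8 was mainly read in the epithelium. Epithelial-like cells (Cdh1, Krt8, Cldn6), 2938 in number, held 4502 of its 6805 UMIs at 120.6 CPM (117.1 to 124.2), against 17.9 CPM in all other kept cells, a log2 ratio of 2.75 (2.68 to 2.83). Of the 5 ligands, Fgf8, Fgf9, Fgf15 and Fgf17 were called higher there, as were 14.5% of 15916 genes, and Fgf20 had too few UMIs. Split by markers such as Trp63 and Foxa2, ectoderm-like cells had 133.6 CPM of Fgf8 (129.0 to 138.3) and endoderm-like cells 97.4 (92.2 to 102.8). This split was weak, since 346 and 411 of the 2938 cells met the score criterion used for the other groups. Those strictly scored cells had 86.6 and 43.2 CPM, and the 2181 cells between them had 140.5. The log2 ratio of ectoderm-like to endoderm-like cells was 0.46 (0.36 to 0.55), and 1.00 with the strict split. Ectoderm markers kept out of the grouping were divided over the strict split. Vgll2 and Irx1 were lower in its ectoderm, at 128.8 and 26.0 CPM against 199.3 and 52.2 in its endoderm. Tfap2a and Perp were higher, at 59.8 and 44.6 CPM against 12.0 and 24.5. In the main split Vgll2 was nearly equal, at 222.4 and 213.8 CPM.

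Among the other E9.5 groups, Fgf8 was at 44.4 CPM in cardiac-like, 37.6 in mesoderm core-like and 33.2 in neuron-like cells, and each of these 3 levels did not differ from the next of them beyond counting error. Cardiac-like cells were below endoderm-like cells by 2.19-fold (1.86 to 2.61), and neuron-like cells above blood-like cells by 2.40-fold (1.53 to 3.95). It was at 13.8 CPM in blood-like, 10.9 in macrophage-like, 9.12 in endothelial-like, 6.66 in migratory crest-like and 3.13 (2.66 to 3.66) in crest mesenchyme-like cells. Blood and endothelial cells are not known as sources of Fgf8. Their intervals overlapped, 8.67 to 21.0 and 7.05 to 11.6 CPM, and crest mesenchyme-like cells lay below both. No single background level was taken from them for the library. Ectoderm-like cells were above endothelial-like cells by 3.87 (3.52 to 4.25) and above crest mesenchyme-like cells by 5.42 (5.18 to 5.66) on the log2 scale, where 19.0% and 18.4% of genes were called higher and the medians of all genes were 0.18 and 0.16. Crest mesenchyme-like cells were lower in Fgf8 than all other kept cells by 18.3-fold (15.6 to 21.6), and 18.5% of genes were called lower. Fgf8 was detected in 43.3% of ectoderm-like and 8.74% of endothelial-like cells (medians of 12830.5 and 13544 UMIs), and in 27.4% and 2.75% with each cell thinned to 4000 UMIs. Single cells held up to 24 UMIs of Fgf8 at E9.5 and up to 8 at E12.0.

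The mesoderm core-like cells (Tcf21, Msc, Tbx1) differed from the other non-epithelial groups when Fgf8 was set against an epithelial gene. They had 420 Fgf8 UMIs and 224 of Epcam, 1.88 Fgf8 UMIs per Epcam UMI (1.59 to 2.22). The ratio was 0.261 (0.251 to 0.272) in ectoderm-like, 0.189 in endoderm-like, 0.261 in crest mesenchyme-like, 0.274 in neuron-like, 0.494 in cardiac-like and 0.550 (0.401 to 0.749) in endothelial-like cells. The mesoderm core-like ratio lay above those of the other 9 groups, which themselves ranged from 0.128 in macrophage-like to 0.550 in endothelial-like cells. The part of free RNA in these levels was not tested. Fgf8 in mesoderm core-like cells exceeded that in endothelial-like cells by 2.04 (1.67 to 2.44) on the log2 scale, where 12.2% of genes were called higher. The fold, 4.12, was 2.46 without the upper limit on genes per cell. Called doublets made up 7.59% of mesoderm core-like and 6.74% of endothelial-like cells, and without them the log2 value was 2.43. In these cells 3 of the 12 other FGF ligands with enough UMIs were higher and 5 lower than in all other cells. Of all genes, 6.73% were called higher and 11.8% lower. Among the 3, Fgf10, a ligand of mesodermal cells, was at 47.6 CPM against 4.83. Of the 10 response genes 3 were higher, Dusp6, Etv4 and Etv5, with Etv4 at 22.6 CPM against 6.23.

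**Figure D3:**
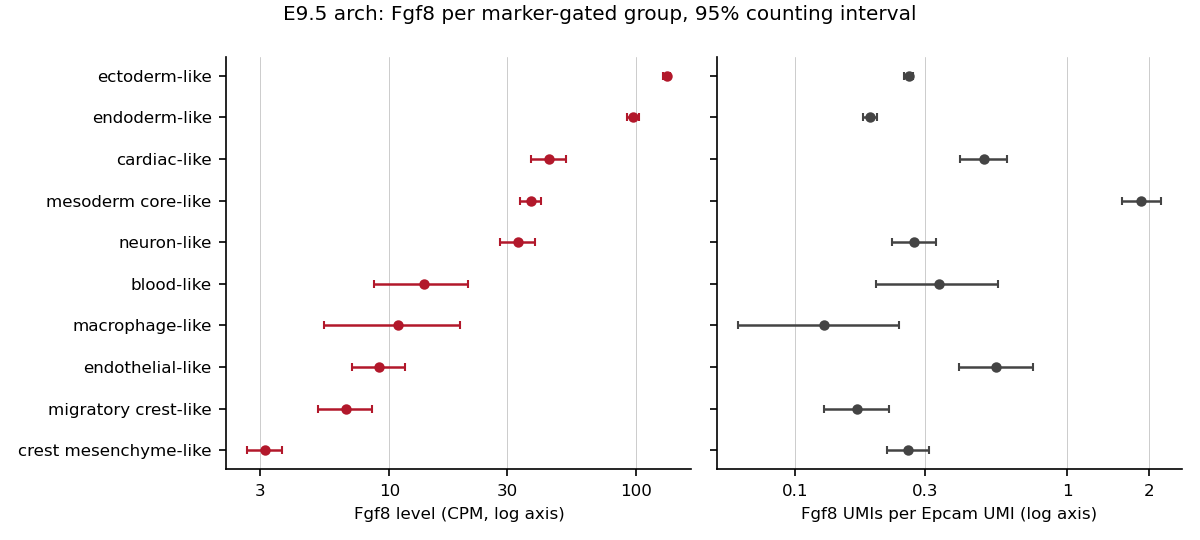
Fgf8 level (CPM, left) and Fgf8 UMIs per Epcam UMI (right) in the 10 groups of the E9.5 library, on log axes, with points for the value and bars for the 95% counting interval. Ectoderm-like and endoderm-like cells have the highest levels, 133.6 and 97.4 CPM, and mesoderm core-like cells stand apart on the right, at 1.88 against 0.128 to 0.550 in the other groups.

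Position markers divided the Fgf8 of the E9.5 ectoderm-like cells. Cells with a UMI of Vgll2, a cofactor gene that the study uses for the oral ectoderm, had 204.8 CPM of Fgf8 (197.2 to 212.6), and cells without had 42.1 (38.2 to 46.2). The log2 ratio was 2.28 (2.14 to 2.43), where 1.23% of 12490 genes were called higher. Over all epithelial-like cells it was 2.15 (2.03 to 2.27). Cells with Vgll2 were deeper, with medians of 14848 and 10597 UMIs, and thinned cells had Fgf8 in 46.1% and 9.10%. Cells with a UMI of Tfap2b, which marks the ventral and aboral side, had 91.1 CPM against 139.0 without, and those with a UMI of Sfn, a gene of surface epithelium, had 105.3 against 151.2. These 2 differences did not reach 2-fold. Endoderm-like cells with a UMI of Pax1, a gene of the pharyngeal pouches, had 67.8 CPM of Fgf8 against 109.1 without, also under 2-fold. Pax1 was itself a marker used to place cells in the endoderm-like group. This split therefore also follows how well a cell met that grouping.

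The response genes differed in the same direction across the Vgll2 split. In ectoderm-like cells with Vgll2, 5 of the 10 were higher and 0 lower, where 1.23% and 4.44% of all genes were called. The median log2 ratio was 1.15 over the list and -0.06 over all genes tested. Dusp6 was at 82.0 CPM with Vgll2 and 31.1 without, Etv5 at 26.4 and 7.64, Etv4 at 11.7 and 3.82, Etv1 at 13.8 and 3.54 and Spry4 at 8.25 and 2.58. None of the 4 receptor genes with enough UMIs reached 2-fold across this split. Ectoderm-like cells as a whole had 0 of the 10 response genes higher and 1 lower than all other kept cells. Of all genes, 11.5% and 9.73% were called there, and the medians were 0.08 over the list and 0.10 over all genes. Mesoderm core-like cells, lower in Fgf8 than epithelial-like cells, had 4 of the 10 higher than in those cells and 1 lower. Of all genes, 6.67% and 12.5% were called in that comparison.

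The other 4 ligands were sparse at E9.5. Fgf9 had 58 of its 98 UMIs in epithelial-like cells, at 1.55 CPM (1.18 to 2.01), and was 5.00-fold (3.29 to 7.68) higher there than in the other cells. Fgf17 had 30 of 49, at 0.804 CPM (0.542 to 1.15), and was 5.45-fold (2.97 to 10.2) higher. Fgf9 had 3 UMIs and Fgf17 had 2 in the 3002 crest mesenchyme-like cells, which had a level 13.6-fold (4.51 to 67.0) and 10.1-fold (2.64 to 85.7) below that of all other cells. Cardiac-like cells had the highest level of both, on few UMIs, with Fgf9 at 1.72 CPM (6 UMIs) and Fgf17 at 1.15 CPM (4 UMIs). These levels did not differ from those of the next groups in the order, ectoderm-like cells for Fgf9 and macrophage-like cells for Fgf17, beyond counting error. Against all other kept cells they were 3.04-fold (1.09 to 6.87) and 4.14-fold (1.08 to 11.4) higher. Fgf17 in ectoderm-like cells lay almost wholly in those with a Vgll2 UMI, 17 of 18 UMIs. The level was 1.26 CPM (0.736 to 2.02) with Vgll2 and 0.0956 CPM (0.00242 to 0.532) without. Ectoderm-like cells with Vgll2 also held the larger part of the UMIs of all genes, 13457007 of 23921733. The 18 Fgf17 UMIs were too few for the criterion of a call. Fgf15 had 14 of 38 UMIs in epithelial-like cells, a ratio of 2.01 whose interval (0.963 to 4.05) held 1. Of its 11 UMIs in endoderm-like cells 10 were in cells with a Pax1 UMI, 2.62 CPM against 0.104 without. These 11 UMIs were also too few for a call, and Pax1 was a marker used in the grouping. Fgf20 had 7 UMIs in the library, 5 of them in epithelial-like cells and 2 in cells that met no criterion.

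Between the stages, Fgf8 differed in one direction and the other 4 ligands in the other. From E9.5 ectoderm-like cells to all kept E12.0 cells, Fgf8 was lower, 133.6 against 24.9 CPM, and Fgf9 was higher, 1.59 against 58.1 CPM. The log2 ratio of E12.0 to E9.5 was -2.42 (-2.51 to -2.34) for Fgf8, where 11.1% of 14964 genes were called lower, and 5.19 (4.73 to 5.69) for Fgf9, where 24.8% were called higher. The median of all genes tested was itself 0.25, and relative to it Fgf8 was at -2.67 and Fgf9 at 4.94. Fgf17 was at 0.752 and 2.55 CPM, a log2 ratio of 1.76 (1.07 to 2.55), 1.51 relative to the median. Fgf15 and Fgf20 rested on 3 and 2 UMIs at E9.5, with ratios of 2.62 (1.00 to 4.94) and 3.15 (1.24 to 6.23). Against all epithelial-like cells, where Fgf15 had 14 UMIs and Fgf20 had 5, these were 1.04 and 2.47. Fgf8 remained lower at E12.0 when E9.5 cells were chosen by an Epcam UMI (-1.83) or by the strict split (-1.80). With cells thinned to 4000 UMIs, Fgf8 was detected in 27.4% of E9.5 ectoderm-like and 7.81% of E12.0 cells, and Fgf9 in 0.512% and 18.6%. The level of Fgf8 in E12.0 dental-like cells, 51.9 CPM, was also below that of the E9.5 ectoderm-like cells. The receptor gene Fgfr2 was at 56.3 CPM in E9.5 ectoderm-like and 290.6 CPM in E12.0 cells, a log2 ratio of 2.37 (2.29 to 2.45), while Fgfr1 was at 65.8 and 68.2 CPM. Of the 10 response genes 3 were higher at E12.0, Etv4, Spred1 and Spred2, and 0 lower. The count of 3 lies near the share of all genes called higher, 24.8%.

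**Figure D4:**
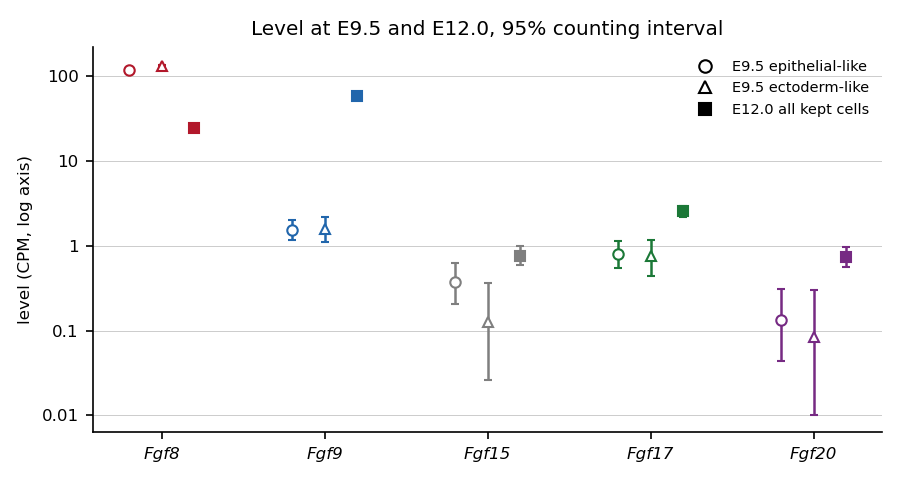
Level of the 5 ligands (CPM, log axis) in E9.5 epithelial-like cells, E9.5 ectoderm-like cells and all kept E12.0 cells, with bars for the 95% counting interval. Fgf8 is lower at E12.0, 24.9 against 133.6 CPM in ectoderm-like cells, and the other 4 are higher, with Fgf9 at 58.1 against 1.59 CPM.

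Detection in the same cell was counted after thinning each cell to 4000 UMIs, and the number of cells with both genes was set against the number that independent detection would give. Among 10439 E12.0 cells, Fgf8 and Fgf9 were found together in 246, against 151.7 expected, a ratio of 1.62 (1.43 to 1.83). With the expectation formed inside each group, 180.4 cells, the ratio was 1.36, and in dental-like cells alone 1.31 (1.00 to 1.69). In initiation knot-like cells Fgf8 and Fgf9 met in 8 cells against 11.1 expected, and Fgf8 met Fgf17 in 0 against 3.42 and Fgf20 in 0 against 2.28, too few to tell from independence. Fgf9 was found with Fgf17 in 25 of these cells against 12.3 expected, 2.03 (1.33 to 2.95), and with Fgf20 in 15 against 8.21, 1.83 (1.03 to 2.98). Fgf17 and Fgf20 met in 4 cells, where 2.54 were expected inside the group. Epcam, present in all of the epithelium, gave ratios of 0.967 with Fgf8 and 0.989 with Fgf9.

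The ligands differed in their relation to Bmp4, a ligand gene of another signalling family. For Irx1, a dental zone gene, values are given for Fgf8 only. Fgf8 was found with Irx1 in 169 E12.0 cells against 81.4 expected, 2.08 (1.78 to 2.41), which was 1.30 (1.12 to 1.51) inside groups and 0.988 (0.786 to 1.22) in dental-like cells alone. Fgf8 was found with Bmp4 in 19 cells against 30.9, a ratio of 0.615 (0.370 to 0.959), and inside groups of 0.653 (0.393 to 1.02). The other ligands met Bmp4 more often than expected. Fgf9 did so in 92 cells against 73.7, 1.25 (1.01 to 1.53), and in initiation knot-like cells in 29 against 15.5, 1.87 (1.27 to 2.65). Fgf17 did so in 14 initiation knot-like cells against 4.79, 2.92 (1.61 to 4.85), and Fgf20 in 8 against 3.19, 2.51 (1.09 to 4.89). Over all kept E12.0 cells, Fgf15 was found with Bmp4 in 6 cells, 5.45 times the expected number (2.00 to 11.9). That expectation was formed over all cells and not inside groups. In E9.5 ectoderm-like cells Fgf8 and Bmp4 met in 10 of 1758 cells against 27.9, a ratio of 0.358 (0.172 to 0.657) that was 0.71 without thinning. Fgf8 and Irx1 met in 49 cells against 39.7 there, 1.24 (0.917 to 1.63), and Fgf8 and Epcam in 402 against 396.5.

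**Figure D5:**
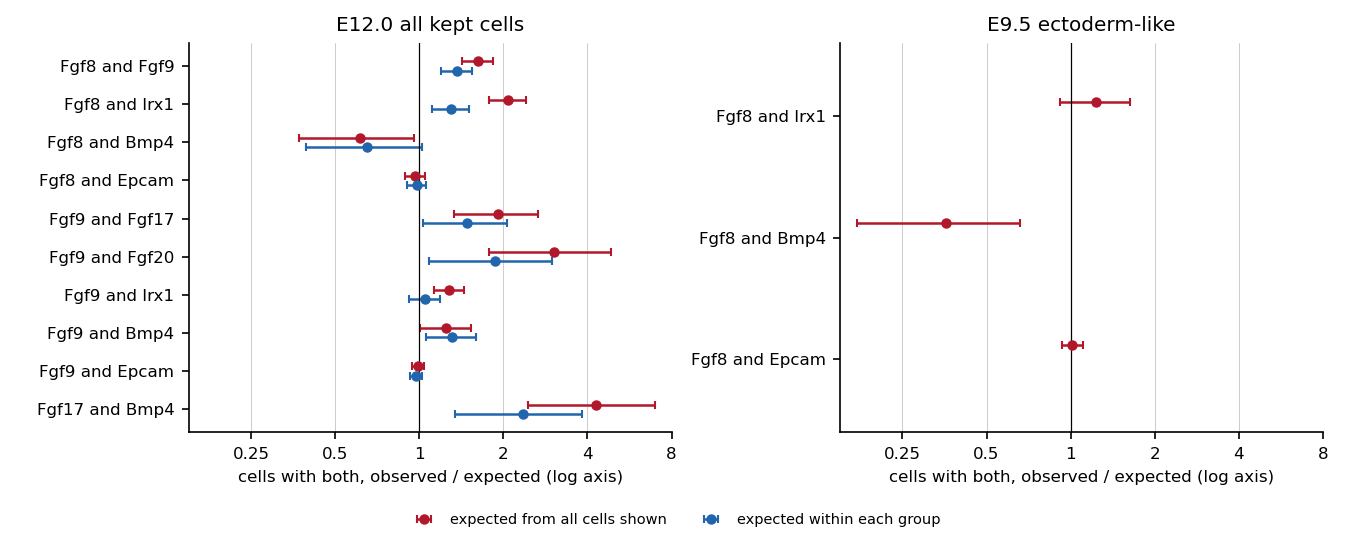
Number of cells with a UMI of both genes over the number expected from independent detection (log axis, 1 marked by the vertical line), after thinning to 4000 UMIs, in all kept E12.0 cells (left) and in E9.5 ectoderm-like cells (right), in red with the expectation over all cells shown and in blue with it formed inside each group, with bars for the 95% counting interval. Fgf8 lies below 1 with Bmp4 at both stages, at 0.615 and 0.358, while Fgf9 and Fgf17 lie above 1 with Bmp4 and Epcam lies near 1.

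The genes whose levels most resembled each ligand were found by Pearson's r of log2(CPM + 5) over the groups of a stage, among genes of at least 50 CPM in 1 group, as a description with no test. Over the 7 E12.0 groups and 4515 genes, they were Igf1r (0.978), Mapk6 (0.970) and Ptms (0.967) for Fgf8 and Zfp532 (0.968), Nfia (0.967) and Psmc1 (0.938) for Fgf9. For Fgf17 they were Desi2 (0.9901), Ufm1 (0.989) and Kansl1l (0.987), and for Fgf20 Sox13 (0.993), Ufm1 (0.985) and Kansl1l (0.983), all highest in initiation knot-like cells. Over the 10 E9.5 groups and 4252 genes, Socs2 (0.974), Has2 (0.969) and Tmem9 (0.963) were most like Fgf8. The groups of a stage share 1 library, and they number 7 or 10.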

How the data were processed

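Single-cell RNA was measured by 10x Genomics libraries from E12.0 sorted epithelium and E9.5 mandibular arches, 1 library each. The authors deposited UMI counts per gene and barcode on GRCm38, without normalization. Their file headers name Cell Ranger 3.1.0 (E12.0) and 6.1.2 (E9.5), and the submitters' notes 2.0.0. The gene lists share 27514 identifiers.

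The deposited counts were used as they are. Cells with 200 to 5500 genes and at most 10% mitochondrial UMIs were kept, 77936364 UMIs in all at E12.0 and 166191431 for E9.5. Marker scores (mean z of log counts per 10000 UMIs) placed a cell in its highest class if at least 0.5 and 0.25 above the next. UMIs were summed per group and given as CPM with exact Poisson intervals, ratios with exact conditional binomial intervals and shares with Clopper-Pearson intervals. PCR duplicates are removed by UMIs, and intervals cover counting error only. Called doublets (Scrublet, 581 and 633 cells) were kept. Thinning used seed 1. Gene positions and sequences are those of the GENCODE annotation of GRCm38. The software was scanpy 1.11.5, matplotlib 3.10.9, pandas 2.3.3, scipy 1.17.1 and numpy 2.4.6 under Python 3.11.15, and the steps were tested on simulated data.

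The members, markers, gene lists, criteria and comparisons were chosen with earlier results of these data known. The genes named are the 5 ligands, Irx1, Bmp4 and Epcam, pathway genes called in a group where a ligand is highest, and the 3 genes most like each ligand. Levels of Fgfr1 and of Etv4 in anterior-like cells were named after their values were seen. Alternatives were 2 other class scores, no upper gene limit, at most 5% mitochondrial UMIs, no called doublets, cells weighted equally, thinned cells and E9.5 cells chosen by Epcam. The strict split, the comparison with all epithelial-like cells and the wider sub-groups were chosen after seeing the data. One planned split of the ectoderm-like cells is not reported here.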

Additional observations from a re-analysis of the deposited data

How the results depend on the processing

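No paired analysis was possible because there was 1 library per stage and the labels carry no replicate numbers. The cause of each change below was not tested. No ratio that reached 2-fold reversed its direction under any alternative, and a change of sign in smaller ratios was not counted. Of the recomputed values of the main comparisons, 95 stayed within the counting interval of the reported value and 30 moved. Of the other values, 339 stayed and 59 moved. Values are log2 ratios unless stated. With at most 5% mitochondrial UMIs, which left 3254 of 11355 E12.0 cells, the stage ratio of Fgf8 was -2.58, Fgf8 in dental-like cells 0.91 and Fgf9 in salivary-like cells 1.25. With a class score of at least 1.0, Fgf8 was at 0.79 in dental-like, -3.64 in anterior-like and 0.62 in ectoderm-like against endoderm-like cells, its stage ratio was -2.16, and Fgf9 in initiation knot-like cells was 1.29. With a score of at least 0.25, Fgf8 in dental-like cells was 1.45. Without the upper gene limit, Fgf8 in ectoderm-like cells was 4.89 against crest mesenchyme-like, 3.11 against endothelial-like and 0.57 against endoderm-like cells, and 1.30 in mesoderm core-like against endothelial-like cells. With the strict split the first 3 of these were 4.79, 3.25 and 1.00 and the stage ratio of Fgf8 -1.80. The stage ratio of Fgf8 was -2.28 against all epithelial-like cells, -1.83 against cells with an Epcam UMI and -2.24 with cells weighted equally. Fgf8 in anterior-like cells was -3.51 with cells weighted equally and -3.72 without called doublets. In thinned cells, Fgf9 in salivary-like cells was 0.91, Fgf8 in mesoderm core-like against endothelial-like cells 2.49 and the stage ratio of Fgf17 2.68. Joint detection of Fgf8 and Bmp4 in E9.5 ectoderm-like cells was 0.71 without thinning. At E12.0 that of Fgf8 and Fgf9 was 1.36 inside groups, and that of Fgf8 and Irx1 1.30 inside groups and 2.82 where both genes needed 2 UMIs or more. The Isl1 or Tlx1 split was -0.91 over all kept E12.0 cells. Depth limited Fgf15 and Fgf20 most, with 60 and 58 UMIs in the E12.0 library, then 38 and 7 in the other.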
